A study of Mus musculus with 16 samples.

Results

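The effect of losing Dsg2 on the mouse heart transcriptome was compared between 2 ages, as the Dsg2-/- minus wild-type difference at 10 weeks less the same difference at 2 weeks. All 16 of the 16 samples of the series entered the comparison, and genes were joined between the 2 expression tables by gene name. Of 51498 genes found in both tables, 12889 averaged 1 FPKM or more across all samples and were tested. FPKM are sequenced fragments scaled by transcript length and by the library's total. The 6919 genes whose wild-type average reached 5 FPKM at each age, called well expressed below, are also given separately.

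The groups were Dsg2-/- and wild-type (Dsg2+/+) C57BL/6 mice at 2 weeks and the same genotypes at 10 weeks, with 4 heart samples per group, 2 labelled male and 2 female. The series title calls the deletion cardiac-specific. The promoter or Cre line behind it is not given in the sources used here. Nothing states further whether samples of a group came from separate litters, so p-values measure the spread between these samples.

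Desmoglein-2, the product of Dsg2, is an adhesion protein of desmosomes, the junctions that hold neighbouring heart muscle cells together and anchor their intermediate filaments. Inherited defects of desmosomal proteins are the main known cause of arrhythmogenic cardiomyopathy, in which muscle cells are lost and replaced by scar and fat. Scar in the heart is made by fibroblasts, which deposit collagens and other matrix proteins, while monocytes and macrophages clear dead cells and release inflammatory signals.

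Dsg2 itself checks the genotype labels. At 2 weeks it measured 16.7, 20, 22.4 and 22.9 FPKM in wild-type and 5.01, 3.75, 4.25 and 3.63 FPKM in Dsg2-/- hearts. At 10 weeks the values were 17.8, 19.5, 23.9 and 22.8 FPKM against 2.52, 2.24, 3.05 and 2.79 FPKM. The genotypes did not overlap at either age, and the difference between ages did not pass the threshold (-0.53, SE 0.17, limma adjusted p = 0.149). The Dsg2 row of the 10-week table carried an identifier and no name, as did those of Comp, Col14a1 and Cilp below, and such rows may hold merged loci.

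Within groups the samples correlated with Pearson r of 0.96 to 0.989 across genes. The 10 and 2-week tables were normalised separately, so only effects within an age are compared here, never levels between ages. Fragment totals are not part of the tables. Low values of genes with 1 transcript lay near whole multiples of a step in 43.5% to 54.6% of cases. For each library the step was the one with the highest such share. Evenly spread values would give 20% at a step fixed beforehand, and more at a step so chosen. The step gives a rough relative depth. At 2 weeks this was 40.4% to 80.3% of the deepest library in Dsg2-/- and 79.1% to 100% in wild-type hearts, and at 10 weeks 75.6% to 82% and 78.9% to 100%. Markers of cardiomyocytes summed to 24000 to 25600 FPKM in wild-type and 18900 to 22100 FPKM in Dsg2-/- hearts at 2 weeks, and to 27800 to 28900 against 22500 to 26100 FPKM at 10 weeks, with no overlap at either age. Markers of atrial muscle summed to 345 FPKM in wild-type replicate 1 at 10 weeks and to at most 4420 FPKM in that group, and lung markers reached 292 FPKM in 1 wild-type and 537 FPKM in 1 Dsg2-/- library at 10 weeks. Their part in the results was not tested.

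Some genes of the scar matrix had a larger effect of Dsg2 loss at 10 weeks, and some of monocytes, phagocytes and the interferon response had a smaller one. The effect differed between ages for 289 genes, 2.24% of the 12889 tested (limma-trend on log2(FPKM + 1), adjusted p under 0.05). It was larger at 10 weeks, meaning more positive, for 82 genes (0.636%) and smaller for 207 (1.61%). Among the well expressed genes, 67 of 6919 differed (0.968%), with 34 larger (0.491%) and 33 smaller (0.477%). Among the other 5970 genes 222 differed (3.72%), 48 larger (0.804%) and 174 smaller (2.91%). Of these 174, 61 reached the level for testing only through the Dsg2-/- hearts at 2 weeks. For these the other 12 samples averaged under 1 FPKM. That route favours a call in this direction without fixing it, and 352 genes were tested by it in all. Likewise 5 of the 48 reached the level only through the Dsg2-/- hearts at 10 weeks, a route taken by 134 genes in all. For such genes the values below are a description, given without a test. Without them 146 of all genes had a smaller and 77 a larger effect.

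Each age was also tested alone on the same genes. At 2 weeks 2719 genes passed (21.1%), 2242 higher (17.4%) and 477 lower (3.7%) in Dsg2-/- hearts. At 10 weeks 733 passed (5.69%), 660 higher (5.12%) and 73 lower (0.566%). This split depended on the scaling of the libraries. With median-of-ratios scaling 1374 were higher and 1024 lower at 2 weeks, and 416 and 149 at 10 weeks. With quantile normalisation the counts were 1173 and 1281 at 2 weeks, and 348 and 163 at 10 weeks. The split of the difference between ages moved less, to 89 larger and 204 smaller and to 111 and 207. The 82 genes with a larger effect had a median log2 fold change of 0.02 at 2 weeks and 1.16 at 10 weeks, and all 82 had a positive estimate at 10 weeks. Of these, 64 passed at 10 weeks only and 10 at both ages. The 207 genes with a smaller effect had medians of 1.76 and 0.38, and all 207 had a positive estimate at 2 weeks. Of these, 144 passed at 2 weeks only and 59 at both ages. The median over all genes was 0.10 at 2 weeks, 0.09 at 10 weeks and -0.02 for the difference. By the sign and size of the estimates, 46 effects strengthened, 176 faded and 67 had opposite signs at the 2 ages. Among well expressed genes these were 18, 22 and 27.

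**Figure D1:**
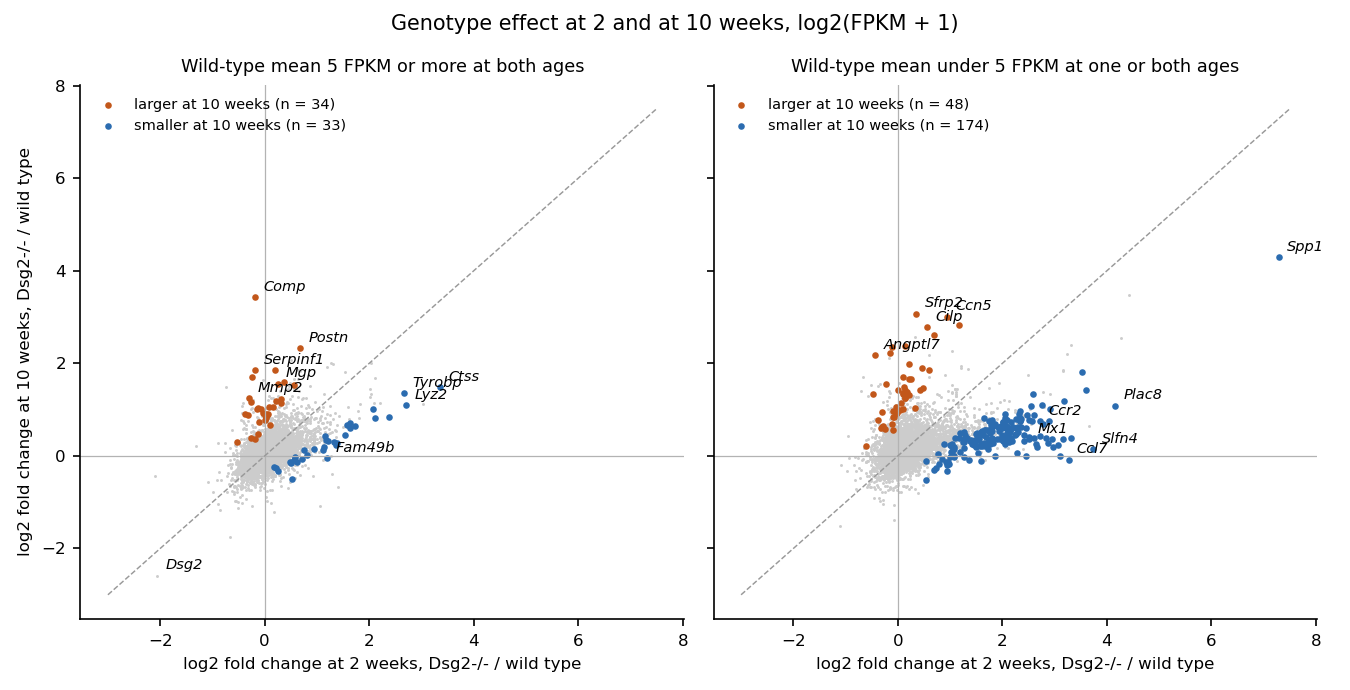
Log2 fold change of each gene at 2 weeks (x axis) and 10 weeks (y axis), Dsg2-/- over wild type on log2(FPKM + 1), split by wild-type level; orange genes had a larger and blue genes a smaller effect at 10 weeks (adjusted p under 0.05), and the dashed line marks equal effects. On the left 34 genes are orange and 33 blue, and on the right 48 are orange and 174 blue; the blue genes stretch along the 2-week axis, with Spp1 farthest out at 7.29 and 4.30.

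Structural matrix genes had larger effects at the older age. Of 52 genes of collagens, glycoproteins, elastic fibres and proteoglycans, 16 had a larger effect at 10 weeks and 0 a smaller one. Over all genes these shares were 0.636% and 1.61%. The list's median log2 fold change went from 0.25 to 1.13. By the tests within an age, 19 of the 52 genes were higher in Dsg2-/- hearts at 2 weeks and 40 at 10 weeks. The shares of all genes were 17.4% and 5.12%. None of the 52 was lower at either age. The count of 16 was 14 without Dsg2-/- replicate 3 at 2 weeks, but 7 without wild-type replicate 1, and 9 or 10 without wild-type replicates 2 or 4 or Dsg2-/- replicates 1 or 4 at that age or wild-type replicates 1 or 2 at 10 weeks. It was 6 without the filter on low values. Among its 38 well expressed genes, 11 had a larger effect and the median difference was 0.83. In bulk heart tissue, more cells of a type and more RNA per cell cannot be told apart.

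Comp, cartilage oligomeric matrix protein, which binds collagen fibrils, had the largest difference among well expressed genes (chromosome 8, 70373558 to 70382066, GENCODE M21 on GRCm38). At 2 weeks it measured 8.47, 8.52, 5.55 and 8.63 FPKM in wild-type and 6.65, 8.69, 5.36 and 6.34 FPKM in Dsg2-/- hearts. At 10 weeks it measured 5.46, 9.64, 6.17 and 6.47 FPKM against 99.5, 118, 82.6 and 48.1 FPKM. The genotypes overlapped at 2 weeks, and at 10 weeks the lowest Dsg2-/- value was far above the highest wild-type value. The log2 fold change went from -0.18 to 3.42, a difference of 3.60 (SE 0.33, limma adjusted p = 4.55e-05).

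Postn encodes periostin, a matrix protein of activated fibroblasts (chromosome 3, 54361109 to 54391037). It measured 50.3, 37.7, 30.6 and 40.2 FPKM in wild-type and 50.5, 90.1, 72.8 and 48.2 FPKM in Dsg2-/- hearts at 2 weeks, and 18.8, 12.2, 19.2 and 17.4 against 63.2, 116, 78.5 and 102 FPKM at 10 weeks. The genotypes overlapped at the younger age and were apart at the older one. Its effect was larger at 10 weeks by 1.65 (SE 0.31, limma adjusted p = 0.0109).

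Small matrix proteins that decorate or link fibres also passed. Fmod, the collagen-binding proteoglycan fibromodulin, measured 8.85, 11.0, 7.3 and 9.41 against 9.72, 9.36, 6.78 and 6.74 FPKM at 2 weeks and 3.22, 4.17, 4.73 and 4.72 against 23.4, 37.4, 22.7 and 14.2 FPKM at 10 weeks, wild type first. Its genotypes overlapped at 2 weeks only, and the difference was 2.37 (SE 0.30, limma adjusted p = 0.00183). Prelp, another proteoglycan of this family, went from -0.26 to 1.16. The elastic fibre genes Mfap4 and Fbln1 went from -0.24 to 1.70 and from -0.15 to 1.01, the call for Mfap4 being lost in 12 of 25 alternative settings. Of 9 proteoglycan genes 4 had a larger effect, and of 10 elastic fibre genes 2.

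The glycoproteins Thbs4 and Cilp, the latter known from cartilage and from scar fibroblasts, went from 0.68 to 2.62 and from 0.55 to 2.78. Cilp measured 4.17 to 4.73 FPKM in wild-type and 5.22, 12.9, 10.8 and 3.19 FPKM in Dsg2-/- hearts at 2 weeks, and 3.86 to 7.08 against 39.7, 72.0, 52.2 and 29.2 FPKM at 10 weeks. Mgp, matrix Gla protein, an inhibitor of calcification, measured 204, 216, 147 and 187 against 219, 253, 204 and 215 FPKM at 2 weeks and 150, 203, 235 and 229 against 541, 738, 470 and 674 FPKM at 10 weeks. For Mgp the genotypes were apart at 10 weeks only, with a difference of 1.31 (SE 0.23, limma adjusted p = 0.00657). Serpinf1, pigment epithelium-derived factor, went from -0.18 to 1.85.

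The fibrillar collagens themselves did not pass for the difference between ages, at 0 of 6 genes, beside 2.24% of all genes. Col1a1 measured 261, 234, 170 and 231 against 314, 441, 299 and 224 FPKM at 2 weeks and 37.3, 45.2, 56.6 and 58.1 against 113, 204, 186 and 105 FPKM at 10 weeks. Its 2-week genotypes overlapped and its 10-week genotypes did not. The difference was 1.08 (SE 0.33, limma adjusted p = 0.12). For Col3a1 it was 1.22 (SE 0.37, limma adjusted p = 0.117). The median difference of the 6 genes was 0.95. Other collagens passed: Col14a1 went from 0.19 to 1.85, Col8a2 from 0.22 to 1.98, Col16a1 from 0.48 to 1.48, Col6a1 from 0.00 to 0.89 and Col6a2 from 0.05 to 0.88. The call was lost in 10 of 25 alternative settings for Col6a1, in 18 of 25 for Col6a2 and in 13 of 24 for Col16a1, and Col8a2 was tested only through the Dsg2-/- hearts at 10 weeks. The most negative difference in this list was that of Tnc, tenascin-C, a glycoprotein of early wounds. It was higher at both ages (3.16 and 1.85), and its difference of -1.30 did not pass (limma adjusted p = 0.0755).

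**Figure D2:**
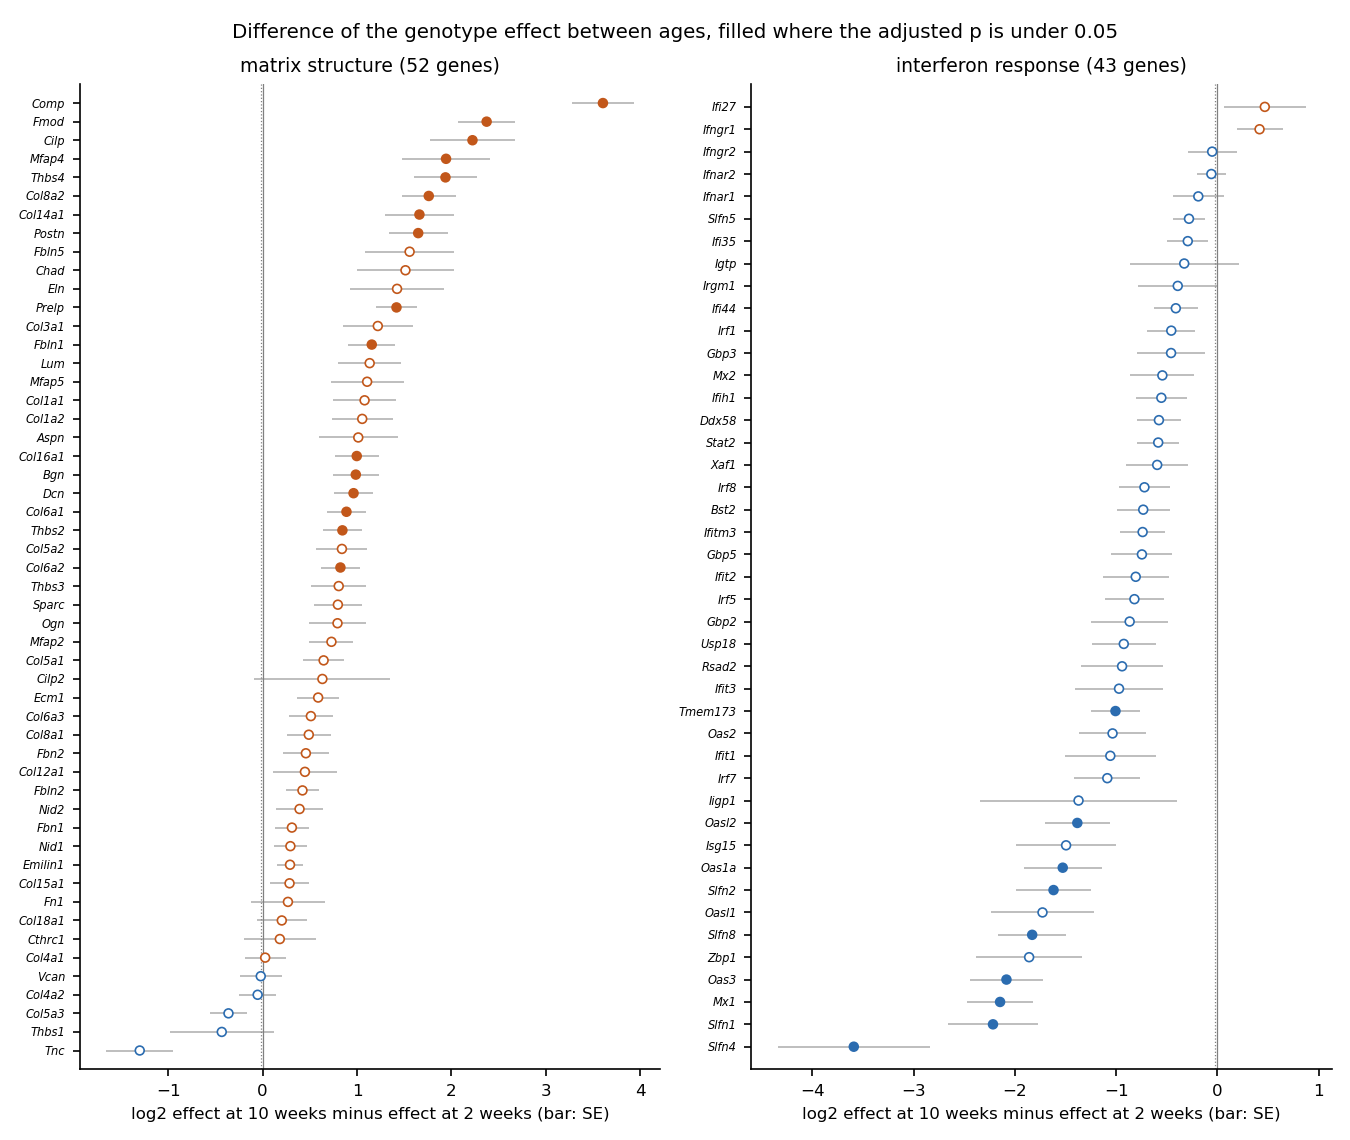
Difference of the genotype effect between ages (log2 effect at 10 weeks minus effect at 2 weeks, bars SE) for the 52 matrix structure genes and the 43 interferon genes tested; filled points have an adjusted p under 0.05 and the dotted line is the median of all genes, -0.02. On the left 47 genes lie above 0, Comp highest at 3.60, and on the right 41 lie below 0, Slfn4 lowest at -3.59.

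Some genes that process the matrix had larger effects too. Of 44 genes, 8 had a larger effect at 10 weeks and 1 a smaller one, beside 0.636% and 1.61% of all genes. The list's median difference was 0.18. Without Mmp12 and Adam8, each tested only through 1 group, 7 had a larger and 0 a smaller effect. Mmp2, gelatinase A, which cleaves collagen and is made by fibroblasts (chromosome 8, 92827291 to 92853420), measured 49.6, 52.3, 46.5 and 53.8 FPKM in wild-type and 43.9, 45.6, 38.9 and 35.5 FPKM in Dsg2-/- hearts at 2 weeks. At 10 weeks it measured 17.8, 16.9, 25.6 and 23.7 against 45.4, 60.3, 50.7 and 47.4 FPKM. Every Dsg2-/- value was below every wild-type value at 2 weeks and above them at 10 weeks. It fell by 0.30 (SE 0.09, limma adjusted p = 0.0429) and then rose by 1.25 (SE 0.15, limma adjusted p = 0.00254), a difference of 1.55 (SE 0.18, limma adjusted p = 0.000772).

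Mmp2 and Pgm1 were the 2 genes that passed at both ages with opposite signs. Pgm1 had wild-type means of 78.3 FPKM in the 2-week and 2.19 FPKM in the 10-week table, and Pgm2 had 3.62 and 86.4 FPKM. The names may therefore stand for different genes in the 2 tables, and the Pgm1 and Pgm2 values are not read as an effect of age. In all, 151 genes tested differed more than 8-fold in wild-type level between the tables or were listed at 0 throughout one of them. Of these, 6 were among the 289, and without them 79 were larger and 204 smaller. Apoc2, an apolipoprotein gene, is 1 of the 6: it is listed at 0 in all 8 libraries at 10 weeks, so no effect at that age is given.

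Mmp12, the elastase of macrophages, was near 0 in all 12 libraries other than the Dsg2-/- hearts at 10 weeks, at no more than 0.163 FPKM. Those 4 hearts measured 3.26, 5.14, 3.22 and 6.87 FPKM. They alone brought it to the level for testing, so its difference of 2.23 on the log2(FPKM + 1) scale is a description. Adam8, a leukocyte membrane protease, went the other way, from 2.92 to 1.01, and was tested only through the Dsg2-/- hearts at 2 weeks. The protease inhibitors Timp2 (0.02 to 0.90) and Reck (-0.12 to 0.70) and the collagen-processing genes P3h2, P3h3, Pcolce2 and Adamts2 had larger effects at 10 weeks. The call was lost in 17 of 25 alternative settings for P3h3 and in 15 of 25 for Adamts2. Timp1, an inhibitor induced by injury, was higher at both ages (4.26 and 2.54). Its difference of -1.72 did not pass (limma adjusted p = 0.0667).

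**Figure D3:**
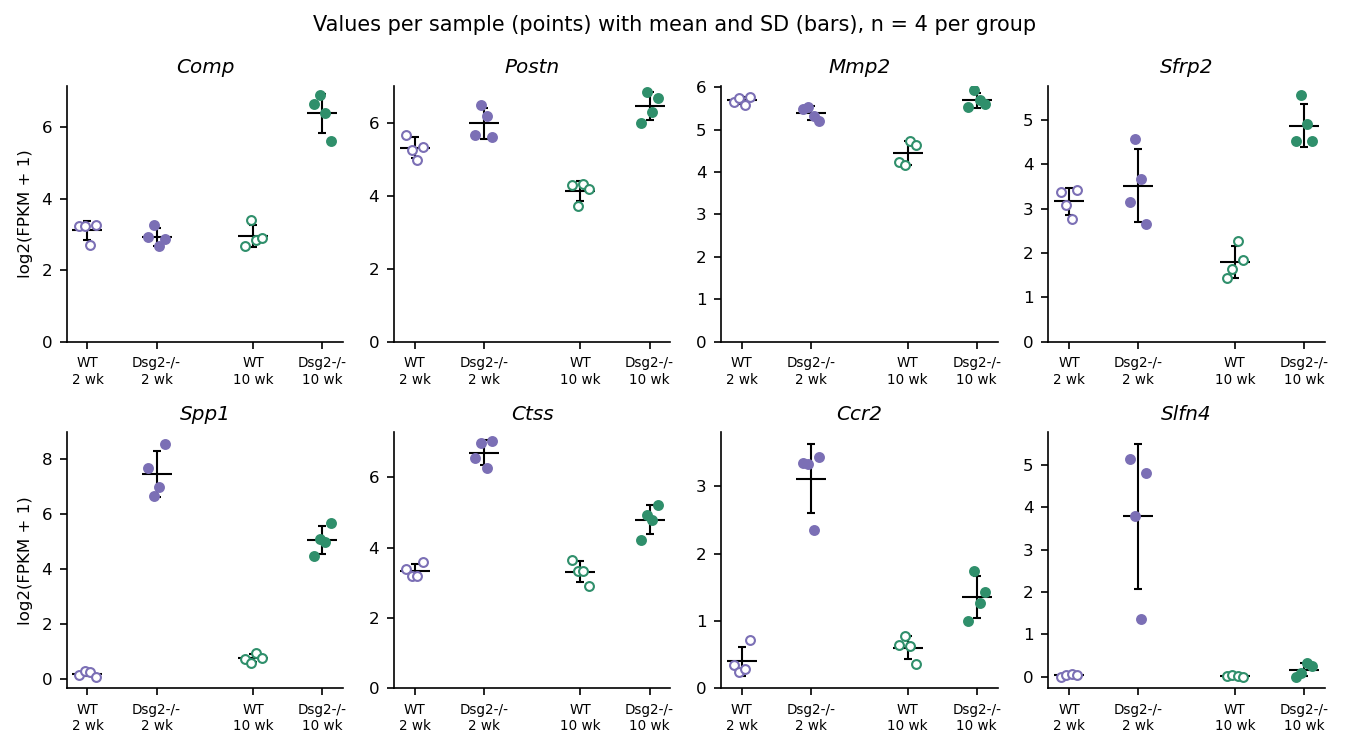
Values of 8 genes in each of the 16 samples as log2(FPKM + 1), with open points for wild type, filled points for Dsg2-/-, and bars for the mean and SD of 4 samples. Comp, Postn, Mmp2 and Sfrp2 separate the genotypes most at 10 weeks, and Spp1, Ctss, Ccr2 and Slfn4 at 2 weeks; levels at the 2 ages come from separate tables.

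TGF-beta drives matrix production by fibroblasts. Of 54 genes of the TGF-beta and BMP pathway, 3 had a larger effect at 10 weeks and 0 a smaller one, 5.56% against 2.24% of all genes. The ligand Tgfb3 measured 9.45, 9.35, 8.31 and 9.34 against 10.9, 11.9, 9.99 and 8.59 FPKM at 2 weeks and 5.99, 6.62, 6.51 and 7.82 against 15.2, 19.8, 14 and 11.8 FPKM at 10 weeks. The genotypes overlapped at 2 weeks only (difference 0.89, SE 0.19, limma adjusted p = 0.0185). Tgfb1, the ligand of leukocytes and many other cells, had 0.97 and 0.38, and its difference of -0.59 did not pass (limma adjusted p = 0.193). Ltbp2, which binds to elastic fibres and belongs to the family of latent TGF-beta binding proteins, went from 1.16 to 2.82, and the BMP antagonist Nbl1 from -0.13 to 1.03. None of 11 receptors and 10 signal transducers passed.

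Wnt proteins are secreted signals that several families of extracellular proteins can bind and block. Of 37 Wnt pathway genes, 5 had a larger effect and 0 a smaller one, with a median difference of 0.21. Under quantile normalisation 7 passed, and over 25 alternative settings 3 to 7 had a larger effect. Among the list's 13 well expressed genes 0 passed, and the median difference was 0.12. Among the 6 secreted inhibitors 3 passed: Sfrp2 (0.35 to 3.08), Frzb (0.59 to 1.85) and Sfrp1 (0.25 to 1.67). Sfrp2 measured 9.43, 7.47, 5.79 and 9.63 against 7.85, 22.8, 11.8 and 5.26 FPKM at 2 weeks and 1.7, 2.09, 3.8 and 2.59 against 21.8, 45.9, 28.9 and 21.8 FPKM at 10 weeks. The genotypes overlapped at 2 weeks and were apart at 10 weeks, with a difference of 2.73 (SE 0.47, limma adjusted p = 0.0061). The other 2 were Ccn5, a matricellular protein induced by Wnt (0.94 to 3.01), and Nkd2, an intracellular Wnt inhibitor (0.04 to 0.99), which was tested only through the Dsg2-/- hearts at 10 weeks and lost its call in 15 of 24 alternative settings. None of 4 ligands, 11 receptors and 9 transducers passed, beside 2.24% of all genes.

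Markers of fibroblasts moved with these genes. Of 12 markers of activated fibroblasts, 6 had a larger effect and 0 a smaller one, beside 0.636% and 1.61% of all genes. The list median went from 0.44 to 1.78. These 6 (Postn, Comp, Cilp, Thbs4, Sfrp2 and Mfap4) are also genes named above. Of 11 general fibroblast markers tested, 2 had a larger effect, Dcn (-0.04 to 0.93) and Pi16 (0.32 to 1.15). The number higher in Dsg2-/- hearts was 1 of 11 at 2 weeks and 8 of 11 at 10 weeks, beside 17.4% and 5.12% of all genes. The 11 markers summed to 923 to 1180 FPKM in wild-type and 954 to 1500 FPKM in Dsg2-/- hearts at 2 weeks. At 10 weeks the sums were 779 to 1270 against 1480 to 2200 FPKM. The summed levels overlapped at 2 weeks and not at 10 weeks. Their part in the matrix result was not tested. Markers of cartilage or bone had 2 of 7 genes with a larger effect, Comp and Fmod, which the matrix list also holds.

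Some interferon response genes had smaller effects at 10 weeks. Interferons induce antiviral genes such as the Oas, Mx and Ifit families through receptors on the cell surface. Of 43 genes tested, 9 had a smaller effect at 10 weeks and 0 a larger one, beside 1.61% and 0.636% of all genes. In this list 41 of the 43 differences were negative. The list's median went from 1.11 to 0.30. At 2 weeks 33 genes were higher in Dsg2-/- hearts and at 10 weeks 3, beside 17.4% and 5.12% of all genes. Of the 9, 5 reached the level for testing only through the Dsg2-/- hearts at 2 weeks (Slfn1, Slfn4, Slfn8, Mx1 and Oas3), which leaves 4, and none was among the well expressed genes. Among the 15 members that were, 0 passed, and the median difference was -0.33.

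Slfn4, a Schlafen gene of myeloid cells (chromosome 11, 83175186 to 83190216), was at most 0.0495 FPKM in wild-type and 34.2, 12.9, 1.58 and 27.2 FPKM in Dsg2-/- hearts at 2 weeks. At 10 weeks it was at most 0.0216 FPKM in wild-type and 0, 0.0573, 0.253 and 0.195 FPKM in Dsg2-/- hearts. At 2 weeks Dsg2-/- replicate 3 was lowest, though still above all wild-type values. The difference was -3.59. Slfn1, Slfn2 and Slfn8 (2.60 to 0.38, 2.14 to 0.52 and 2.13 to 0.30) went the same way, and fragments of this gene family may be shared between members.

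Mx1, an antiviral GTPase, measured 0.318, 0.232, 0.202 and 0.346 against 7.11, 8.58, 2.64 and 8.88 FPKM at 2 weeks and 0.042, 0.0857, 0.143 and 0.0664 against 0.334, 0.221, 0.551 and 0.507 FPKM at 10 weeks. The genotypes were apart at both ages, and the difference was -2.15. Oas3, an enzyme that senses double-stranded RNA, measured 0.22 to 0.731 against 8.24, 7.12, 2.57 and 10.3 FPKM at 2 weeks and 0.0519 to 0.224 against 0.313 to 0.624 FPKM at 10 weeks, with a difference of -2.08. Oas1a, Oasl2 and Tmem173, the last encoding the DNA-sensing adaptor STING, made up the 9 with the genes above. The 4 not tested through 1 group alone lost their call in 18 of 24 (Oas1a), 11 of 25 (Oasl2), 12 of 24 (Tmem173) and 12 of 25 (Slfn2) alternative settings. Isg15 and Irf7 had differences of -1.50 and -1.09 that did not pass (limma adjusted p = 0.152 and 0.112).

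In each of these genes replicate 3 of the Dsg2-/- group at 2 weeks held the lowest value of its group. Without that replicate 21 of the 43 genes had a smaller effect, and without each of the other 3 Dsg2-/- replicates at 2 weeks 5 or 6 did. Without any 1 wild-type sample or Dsg2-/- sample at 10 weeks the count was 5 to 11, with a filter at 5 FPKM it was 2 and without a filter 4. The 2-week samples carried a letter code in their titles that coincided with labelled sex. With the 4 samples coded OA (male) alone at 2 weeks 12 interferon genes passed and the median difference was -1.01, and with the 4 coded OB (female) alone 0 passed and it was -0.57. In the same fits 6 and 1 structural matrix genes had a larger effect, and 20 and 0 chemokine or cytokine genes and 15 and 0 phagocytosis genes a smaller one, each fit having 4 fewer samples.

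Promoter windows of the genes with a smaller effect held the interferon-stimulated response element more often than those of other genes. This element is bound by transcription factors of the IRF family. It was searched on both strands, as 2 copies of GAAA in the same direction with any 2 bases between them, in the 250 bases before the start of each gene, in RefSeq sequences of GRCm38.p6, and was chosen after the data were seen. It was in 22 of 149 genes with a smaller effect that had a window (14.8%), 2 of 56 with a larger effect (3.57%) and 282 of 9147 tested (3.08%), beside 2.98% of all 32851 windows. Of the 9 interferon genes named above 7 had a window and 3 held the element, and of the 43 tested 35 had a window and 15 held it. No test was run on these shares. The smaller effects include genes tested only through 1 group, and Oas3, Slfn8 and Saa3 among the 22 are such genes. The share without genes of that kind is not given here. The 22 genes are not all independent: Oas1a and Oas1g have near-identical stretches, and Ifi205, Ifi206, Ifi207, Ifi211 and Ifi213 belong to 1 family. A gene with several windows counted if any of them held the element. A match is a run of letters and not a shown binding site.

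The stretches that hold the element are shown for 10 of the 22 genes, on the strand of the gene with the element in capitals, so that its copies can be compared: the 3 interferon genes, 4 genes of the lists below and 3 of the related Ifi200 genes. Cybb, Spp1 and Saa3 hold it too and are not shown:
Oas1a: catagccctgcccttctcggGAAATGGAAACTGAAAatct
Oas3: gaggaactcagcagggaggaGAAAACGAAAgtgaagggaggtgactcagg
Slfn8: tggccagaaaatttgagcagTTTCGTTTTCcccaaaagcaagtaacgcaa
Ctss: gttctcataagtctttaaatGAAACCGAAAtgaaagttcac
Ncf1: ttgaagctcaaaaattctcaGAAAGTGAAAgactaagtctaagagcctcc
Myd88: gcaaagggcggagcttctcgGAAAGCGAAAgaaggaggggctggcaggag
Tnfrsf1b: cctagctcctggcctgagggTTTCGCTTTC
Ifi206: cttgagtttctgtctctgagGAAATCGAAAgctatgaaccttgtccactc
Ifi207: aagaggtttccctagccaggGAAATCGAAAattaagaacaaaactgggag
Ifi211: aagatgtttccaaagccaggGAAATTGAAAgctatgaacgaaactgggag

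These lie, in the order shown, at chr5:120907526-120907565, chr5:120777705-120777754, chr11:83020829-83020878, chr3:95526745-95526785, chr5:134229678-134229727, chr9:119340029-119340078, chr4:145246871-145246900, chr1:173491329-173491378, chr1:173741821-173741870 and chr1:173913054-173913103. Ctss is on the plus strand and the others are on the minus strand. Oas1a holds 2 overlapping matches, and in Slfn8 and Tnfrsf1b the element is read on the opposite strand. The nearest match began 14 bases before the start in Oas1a, 75 in Oas3 and 21 in Ctss.

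The other motifs searched differed less. The PU.1-type ETS motif GAGGAAGT of myeloid genes was in 5.37% of the genes with a smaller and 1.79% of those with a larger effect, beside 2.86% of all tested. The AP-1 motif TGANTCA was in 12.1%, 5.36% and 5.46%, the TEAD motif GGAATG in 14.1%, 19.6% and 12.9%, and the SMAD palindrome GTCTAGAC in 0.671%, 0% and 0.219%. Matches of different motifs were counted apart and could overlap.

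Some chemokine and cytokine genes went the same way. Of 72 genes, 13 had a smaller effect at 10 weeks and 1 a larger one, beside 1.61% and 0.636% of all genes. The list's median went from 1.01 to 0.42. At 2 weeks 52 of the 72 were higher in Dsg2-/- hearts and at 10 weeks 20, beside 17.4% and 5.12% of all genes. Of the 13, 9 reached the level for testing only through the Dsg2-/- hearts at 2 weeks, which leaves 4. The count was 30 without Dsg2-/- replicate 3, 6 without Dsg2-/- replicate 2 and 7 without wild-type replicate 1 at 2 weeks, and 2 with a filter at 5 FPKM. Only 1 of the 13, the adaptor Myd88, was well expressed. The 4 not tested through 1 group alone each lost their call in some alternative settings. These were 6 of 24 for Il10ra, 9 of 25 for Tnfrsf1b, 8 of 24 for Tnfaip3 and 11 of 25 for Myd88. Ccl7, a monocyte chemoattractant, measured 0.202, 0.224, 0.505 and 1.29 against 24.6, 12.7, 3.11 and 29.2 FPKM at 2 weeks and 1.17, 1.32, 1.15 and 0.118 against 0.34, 0.45, 0.858 and 1.68 FPKM at 10 weeks. Only the 2-week genotypes were apart, with a difference of -3.35, a description since it was tested only through those Dsg2-/- hearts. Its neighbour Ccl2 had 3.65 and 0.65, and the difference did not pass (limma adjusted p = 0.0503).

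Ccr2, the receptor for these chemokines on monocytes (chromosome 9, 124101950 to 124113557), measured 0.272, 0.187, 0.226 and 0.649 against 9.21, 9.09, 4.11 and 9.8 FPKM at 2 weeks and 0.558, 0.72, 0.541 and 0.289 against 1.0, 2.35, 1.41 and 1.71 FPKM at 10 weeks. Neither age had overlapping genotypes, and the difference was -1.96. Like Il1rn, Csf3r, Il17ra, Tlr9 and Tlr13 below, it was tested only through the Dsg2-/- hearts at 2 weeks. Il1rn, the interleukin-1 receptor antagonist, went from 3.31 to 0.38. Receptors with smaller effects included Csf3r, Il10ra, Il17ra and Tnfrsf1b, and 5 of 16 cytokine receptors passed in all. The endosomal sensors Tlr9 (2.12 to 0.46) and Tlr13 (2.16 to 0.73) and the NF-kappaB inhibitor Tnfaip3 (1.26 to -0.02) were also among the 13. Ccl21a, a chemokine of lymphatic vessels, was the member with a larger effect, from 0.12 to 1.49.

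Genes of phagocytosis and the lysosome had the highest share of calls among the pathway lists, with 15 of 45 smaller and 1 larger at 10 weeks. Over all genes 1.61% were smaller and 0.636% larger. The list median went from 1.16 to 0.46. Of the 15, 1 was tested only through the Dsg2-/- hearts at 2 weeks. The count was 23 without Dsg2-/- replicate 3 at 2 weeks and 8 with a filter at 5 FPKM. Among its 30 well expressed genes, 5 had a smaller effect and the median difference was -0.43.

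Genes of the phagocyte NADPH oxidase, which makes superoxide, were among those with a smaller effect. They included Cybb (2.03 to 0.71) and Cyba (1.64 to 0.60), which form its membrane core, the cytosolic subunits Ncf1 (1.72 to 0.56) and Ncf4 (2.09 to 0.33), and the GTPase Rac2 (2.09 to 0.62). Cyba measured 21.4, 20.8, 17.5 and 20.4 against 60.6, 67.4, 43.0 and 96.0 FPKM at 2 weeks and 17.9, 22.3, 19.6 and 20 against 28.1, 28.6, 32.5 and 34.1 FPKM at 10 weeks. The genotypes were apart at both ages, and the difference was -1.03 (SE 0.24, limma adjusted p = 0.0298), a call lost in 12 of 25 alternative settings.

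Lysosomal proteases split. Ctss, cathepsin S, which trims the class II invariant chain for antigen presentation (chromosome 3, 95526786 to 95556403), measured 9.5, 8.18, 8.11 and 11.2 against 93.3, 125, 75.9 and 129 FPKM at 2 weeks and 11.5, 9.16, 9.16 and 6.58 against 17.8, 29.4, 26.7 and 36.4 FPKM at 10 weeks. It rose at both ages, and the difference was -1.88 (SE 0.29, limma adjusted p = 0.00431). Ctsb, Ctsc and Lgmn went from 1.17 to 0.35, 1.37 to 0.23 and 1.54 to 0.45. Ctsk, cathepsin K, a collagen-degrading protease, went the other way, from 0.46 to 1.90 (limma adjusted p = 0.00543 for the difference).

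Receptors of phagocytes had 6 of 16 genes with a smaller effect, among them Fcgr1 (2.72 to 0.44), Cd68 (3.17 to 1.18) and Tyrobp, the signalling partner of several of them (2.67 to 1.35). Tyrobp lost its call in 18 of 25 alternative settings. The complement list held 2 smaller effects, the receptors C3ar1 (2.58 to 0.76) and Itgam (2.78 to 0.69), and 0 larger ones. Its 12 components had none, and C1qb was higher at both ages (1.20 and 0.90, with a difference of -0.29 and limma adjusted p of 0.675). Of 20 antigen presentation genes, Ctss was the 1 that passed.

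Markers of macrophages and monocytes were counted by list. Of 7 monocyte markers tested, 4 had a smaller effect (Plac8, Ms4a4c, Ccr2 and Lyz2) and 0 a larger one. Over all genes the shares were 1.61% and 0.636%. The list's median went from 2.72 to 1.09. Of the 4, all but Lyz2 were tested only through the Dsg2-/- hearts at 2 weeks. The general macrophage list also holds Lyz2. Plac8 measured 0.305, 0.381, 0.132 and 1.08 against 35.6, 29.1, 7.4 and 44.9 FPKM at 2 weeks and 0, 0.356, 0.264 and 0.128 against 0.256, 2.65, 1.2 and 2.92 FPKM at 10 weeks. The genotypes were apart at 2 weeks and overlapped at 10 weeks (difference -3.06). Lyz2, lysozyme, measured 29.7, 34.0, 26.2 and 41.3 against 197, 274, 161 and 258 FPKM at 2 weeks and 79.3, 87.1, 76.1 and 53.2 against 105, 174, 173 and 187 FPKM at 10 weeks. It was higher at both ages, with a difference of -1.62 (SE 0.30, limma adjusted p = 0.00814).

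Of 9 markers of tissue-resident macrophages 0 had a smaller effect and 1, Gas6, a larger one (0.10 to 0.67), and the median difference was -0.01. Among those that did not pass, F13a1 and Folr2 had differences of -0.70 and -0.29. Of 12 general macrophage markers 3 had a smaller effect. Among the others of that list, Csf1r and Adgre1 had 1.23 and 0.59, and 1.68 and 0.92. Their differences did not pass (limma adjusted p = 0.0999 and 0.16). Whether the resident and monocyte lists differ from each other was not tested. The summed monocyte markers were 75.0 to 117 FPKM in wild-type and 309 to 597 FPKM in Dsg2-/- hearts at 2 weeks, and 73.9 to 111 against 170 to 290 FPKM at 10 weeks.

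Markers of the lipid-handling macrophage, a cell that takes up debris, had few calls: of 12 genes 2 had a larger and 2 a smaller effect. Of the 2 larger, Mmp12 was tested only through the Dsg2-/- hearts at 10 weeks, which leaves 1. The differences were positive for 3 of the 12 and negative for 9. The list's median log2 fold change was 1.04 and then 1.59, while the median of the differences was -0.45. Spp1, the secreted protein osteopontin (chromosome 5, 104435118 to 104441050), measured 0.0965, 0.203, 0.18 and 0.0505 against 205, 100, 125 and 373 FPKM at 2 weeks and 0.649, 0.502, 0.934 and 0.673 against 21, 32.8, 30.7 and 50.2 FPKM at 10 weeks. The genotypes were far apart at both ages, and the effect faded by -2.99 (SE 0.44, limma adjusted p = 0.00349). Apoe, an apolipoprotein, and Mmp12 had larger effects, Apoe from 0.38 to 1.60 with a call lost in 14 of 25 alternative settings, and Ctsb a smaller one. Gpnmb and Trem2 were higher at both ages (4.42 and 3.49, and 2.49 and 1.76), and their differences did not pass (limma adjusted p = 0.0986 and 0.233). None of 15 markers of T or NK cells reached the level for testing, and of 6 neutrophil markers 1, Csf3r, had a smaller effect.

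**Figure D4:**
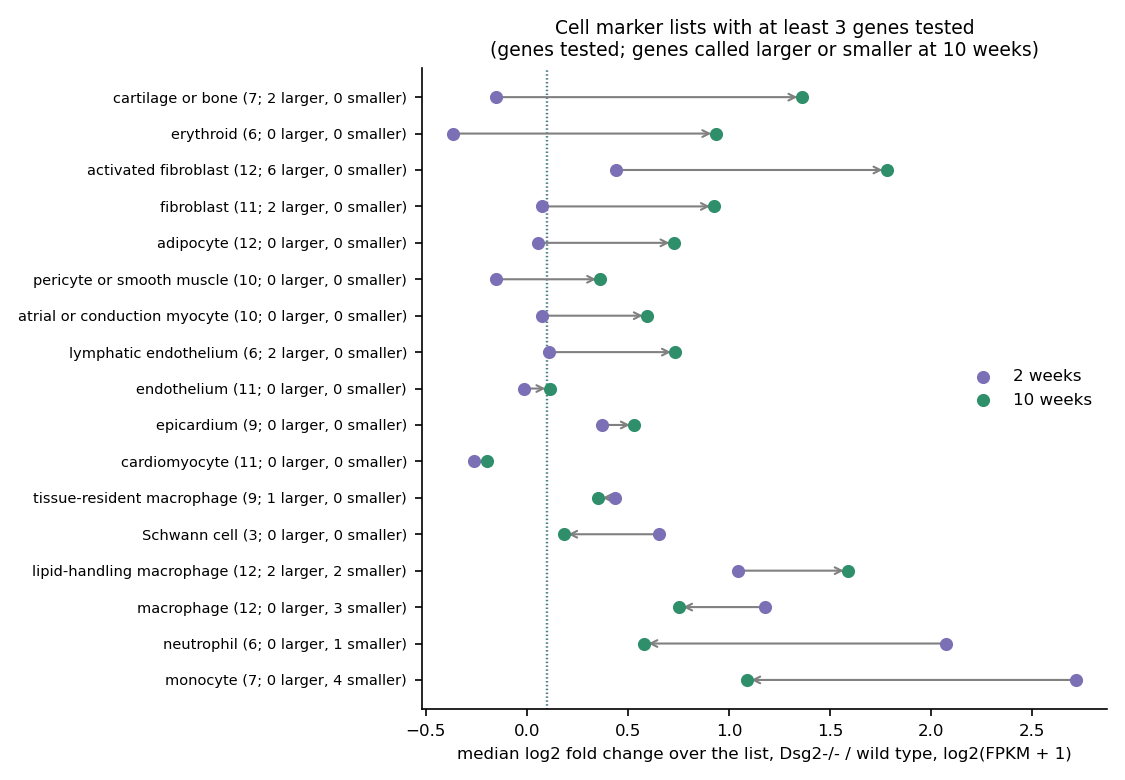
Median log2 fold change of each cell marker list at 2 weeks (purple) and 10 weeks (green), Dsg2-/- over wild type, for lists with at least 3 genes tested; labels give the genes tested and those with a larger or smaller effect at 10 weeks, and dotted lines mark the medians of all genes. The fibroblast lists move right, activated fibroblasts from 0.44 to 1.78, and the monocyte list moves left from 2.72 to 1.09, while the cardiomyocyte list stays at -0.26 and -0.20.

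Cell death genes had 4 smaller effects and 1 larger one among 30, beside 1.61% and 0.636% of all genes. Hmox1, heme oxygenase 1, which degrades heme and is induced by oxidative stress, measured 4.68, 4.74, 3.93 and 5.33 against 40.5, 34.4, 23.2 and 85.4 FPKM at 2 weeks and 4.9, 3.93, 2.76 and 4.75 against 7.62, 5.55, 8.12 and 8.98 FPKM at 10 weeks. The genotypes were apart at both ages, and the difference was -2.13 (SE 0.39, limma adjusted p = 0.00814). Casp8 and Mlkl, which trigger apoptosis and necroptosis, went from 1.19 to 0.09 and from 1.03 to 0.09. Bcl2, an inhibitor of apoptosis, had a larger effect by 0.91, a call lost in 17 of 24 alternative settings. The fourth smaller effect was that of Bcl2a1b, lost in 14 of 25.

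Energy metabolism showed no gene whose effect passed for the difference, beside 2.24% of all genes and 0.968% of the well expressed ones. At 2 weeks 36 of 48 oxidative phosphorylation genes were lower in Dsg2-/- hearts and at 10 weeks 0, beside 3.7% and 0.566% of all genes. The list medians were -0.30 and -0.10. The summed cardiomyocyte markers given above were lower in Dsg2-/- hearts at both ages, and their part in this result was not tested. In the difference between ages 0 of 48 passed by limma, though 47 of 48 differences were positive and their median was 0.21. Cox8b, a subunit of complex IV, measured 734, 752, 628 and 652 against 541, 517, 554 and 511 FPKM at 2 weeks and 751, 826, 832 and 724 against 714, 729, 782 and 1090 FPKM at 10 weeks. It was apart at 2 weeks and overlapped at 10 weeks, with a difference of 0.44 (SE 0.17, limma adjusted p = 0.229). Under quantile normalisation the list median of the difference was 0.07.

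Fatty acid oxidation, with 41 genes, had medians of -0.30 and -0.27, with 18 lower at 2 weeks and 4 at 10 weeks. Glucose and substrate metabolism had -0.27 and -0.12, with 26 of 53 lower at 2 weeks and 2 at 10 weeks, and 0 genes of either list passed for the difference. Whether these lists differ from one another was not tested. Slc2a1, a glucose transporter, and Angptl4, an inhibitor of lipoprotein lipase, had 1.04 and 0.21, and 1.46 and 0.38 (limma adjusted p = 0.345 and 0.316 for the differences).

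The muscle cell's own junctions and channels had no gene that passed for the difference. None of 19 intercalated disc genes and 44 ion channel and calcium handling genes passed, beside 2.24% of all genes. Lists of these sizes would hold few or 0 calls at that share. Their median differences were 0.00 and -0.05. Kcnv2, a potassium channel subunit, had -0.34 and -0.96 (limma adjusted p = 0.0857), and Tmem65, a protein of the intercalated disc, was lower at both ages (-0.23 and -0.61). Cardiomyocyte markers had medians of -0.26 and -0.20 and 0 of 11 passed. Under quantile normalisation the sign of their median difference turned from 0.06 to -0.14.

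Among 29 cardiac stress genes Spp1 was the 1 that passed. Ankrd1, a stretch-responsive protein of the sarcomere, measured 118, 113, 102 and 117 against 357, 446, 413 and 684 FPKM at 2 weeks and 353, 421, 250 and 202 against 1440, 1420, 878 and 1130 FPKM at 10 weeks. It was higher at both ages by nearly the same amount (2.03 and 2.02), with a difference of -0.01 (SE 0.32, limma adjusted p = 0.995). The natriuretic peptide gene Nppb was also higher at both ages (2.03 and 1.34). Myh7, the beta myosin heavy chain of the fetal heart, was lower at 2 weeks (-1.31) and had 0.22 at 10 weeks, and the difference of 1.53 did not pass (limma adjusted p = 0.113). Nppa had 0.51 and 2.07 with an SE of 1.02 for the difference, and it shares the low value of wild-type replicate 1 at 10 weeks with the atrial markers.

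Of 29 cell cycle genes 13 were higher and 1 lower at 2 weeks, and 0 passed at 10 weeks, where 5.69% of all genes did. For the difference between ages 0 passed, beside 2.24% of all genes. The replication helicase gene Mcm5 came closest, at 1.01 and 0.32 (limma adjusted p = 0.0552). The integrated stress response, with 27 genes, and postnatal maturation, with 17, also had 0. Nupr1, a stress-induced chromatin protein, had 0.35 and 1.27 (limma adjusted p = 0.0508).

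**Figure D5:**
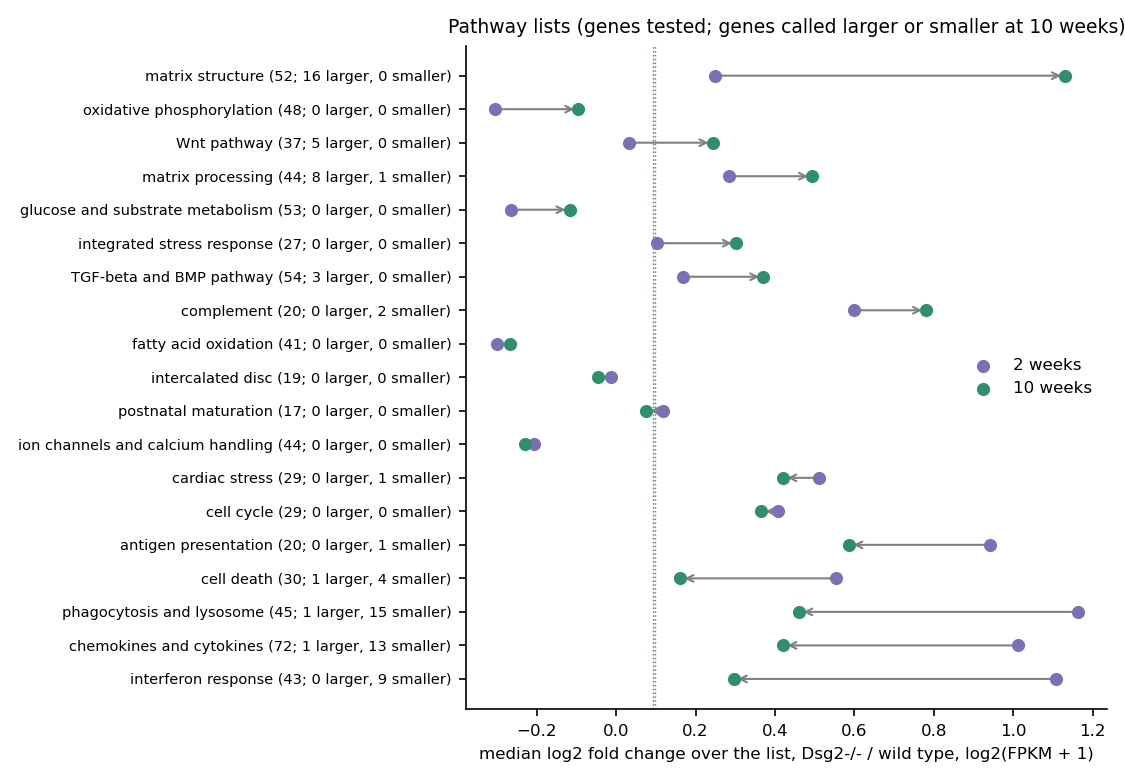
Median log2 fold change of the 19 pathway lists at 2 weeks (purple) and 10 weeks (green), Dsg2-/- over wild type, with genes tested and genes of larger or smaller effect in the labels and dotted lines for the medians of all genes. Matrix structure moves from 0.25 to 1.13, interferon response from 1.11 to 0.30, and oxidative phosphorylation from -0.30 to -0.10.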

How the data were processed

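RNA from 16 heart samples was sequenced from stranded libraries made with removal of ribosomal RNA, per the labels' protocols; the molecule label names polyA RNA, which the labels do not resolve. The authors deposited FPKM values in 1 table per age, made with StringTie 1.3.4 on GRCm38 per the submitters' processing notes. Of 51498 shared genes, 50614 were joined by printed name, 694 by identifier and 190 by synonym.

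Genes averaging 1 FPKM or more entered limma (version 3.58.1, R version 4.3.3) as log2(FPKM + 1), a scale that understates changes of low genes. Variances followed a trend on intensity, and calls used a Benjamini-Hochberg adjusted p under 0.05. The difference between ages came from 1 fit of all 16 samples and each age from its own 8. On data simulated for 12889 genes, 74% of differences of 1 and 98% of differences of 2 on the log2 scale were recovered.

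Genes were named by rule: among calls, the 8 largest differences in each direction at 5 FPKM or more, the 5 largest below it, genes called at both ages with opposite signs, and up to 5 called members per list (the 3 largest where fewer than 2 were called). Other genes were named after their values were seen. The lists and members were chosen with earlier results of these data known. Predicted genes, clones, small RNAs and pseudogenes were passed over. Lists are described without a test. Some genes are not reported here. Alternatives changed the pseudocount, filter, scaling, trend, covariate, name matching and samples.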

Additional observations from a re-analysis of the deposited data

Results flagged for a closer look

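The effect of Dsg2 loss differed between ages for 289 genes, and for 67 of those whose wild-type average reached 5 FPKM, by the test of the difference itself. The effects of Mmp2 and Pgm1 had opposite signs and passed at both ages, with differences of 1.55 and 0.92; the Pgm1 name may stand for different genes in the 2 tables.

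In 5 of 109 groups of 4 samples checked, 1 sample stood apart from the other 3. Comp had a lowest wild-type value of 5.55 FPKM at 2 weeks, with the others at 8.47 to 8.63. Lyz2 had a lowest Dsg2-/- value of 105 FPKM at 10 weeks, with the others at 173 to 187. In wild-type hearts at 10 weeks Cotl1 had a lowest value of 4.66 FPKM (others 6.66 to 7.05), Ccl7 a lowest value of 0.118 FPKM (others 1.15 to 1.32) and Cstb a highest value of 11.0 FPKM (others 9.01 to 9.31). Chance alone flags about 1 in 20 groups, so this number is about what chance gives.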

How the results depend on the processing

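Samples were not matched 1 to 1 between genotypes, since the labels give the groups no shared replicate numbers. Titles share letter codes between genotypes, OA and OB at 2 weeks, where they coincide with sex, and ML for 1 sample of each genotype at 10 weeks. With labelled sex as a term at each age, which at 2 weeks is a block on that code, 244 genes differed and 2464 passed at 2 weeks. Of 119 genes that passed and were followed across settings, 59 kept an adjusted p under 0.05 in each alternative setting that gave them a value (up to 25), 60 lost it in at least 1, and 0 changed sign. The number of genes whose effect differed between ages was 289. It was 198 with a pseudocount of 0.1, 355 with 5, 195 without a filter, 103 with a filter at 5 FPKM, and 293 and 318 under median-of-ratios scaling and quantile normalisation. Leaving out single samples gave 172 to 487. The extremes came without wild-type replicate 1 and Dsg2-/- replicate 3 at 2 weeks, and beyond 1.5-fold lay also wild-type replicate 2 (183) and Dsg2-/- replicates 1 (191) and 2 (192) at that age. For the 67 genes of at least 5 FPKM the range was 34 to 136, and 29 passed without a filter. Beyond 1.5-fold lay, at 2 weeks, wild-type replicates 1 (34) and 2 (42) and Dsg2-/- replicates 1 (41) and 3 (136).

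At 2 weeks alone, 2719 genes became 1685 to 2913 with single samples left out, lowest without wild-type replicate 3 and then Dsg2-/- replicate 2 (1737). At 10 weeks alone, 733 became 365 to 746, 263 without a filter and 1292 by the contrast of the joint fit. Low counts there came without wild-type replicates 1 (365), 2 (411), 3 (461) and 4 (385) and Dsg2-/- replicate 2 (380). Median-of-ratios scaling moved the all-gene median effect to -0.01 at 2 weeks, from 0.10, and to 0.00 at 10 weeks, from 0.09.

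In an alternative chosen after the data were seen, 1 letter code was left out at 2 weeks. With the OB (female) samples alone 5 genes differed, 2 of them at 5 FPKM or more, and 0 passed at 2 weeks. With the OA (male) samples alone 276 differed and 1740 passed at 2 weeks. Each fit had 4 fewer samples, so few calls do not show that an effect was absent. For 82 larger effects with a value in both fits the median difference was 1.09 with OA and 1.09 with OB. For 194 smaller ones it was -1.41 and -1.13. These genes were called with both codes included, so their medians are a description. The difference for Ankrd1, near 0, changed sign with a pseudocount of 5 (0.013), with OA alone (0.234) and without single samples (-0.189 to 0.181). Over 25 alternative settings the number of genes with a larger effect was 3 to 9 in matrix processing, 2 to 6 in the TGF-beta and BMP pathway, 3 to 7 in the Wnt pathway and 0 to 4 among fibroblast markers, and that with a smaller one 2 to 6 among monocyte markers and 1 to 7 among cell death genes. Depth limits genes under 1 FPKM most.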

Other observations

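Of the 289 genes 201 belonged to no list, and some of these are given here, chosen after their values were seen. The Ifi200 family, interferon-inducible genes that lie together on chromosome 1, had a smaller effect at 10 weeks for all 7 members tested. Among all genes tested the share was 1.61%. For members other than Ifi204 and Ifi207, whether they were tested only through 1 group is not given here. Ifi204, for example, measured 1.74, 1.56, 1.55 and 2.26 FPKM in wild-type and 18.3, 16.2, 7.09 and 22.2 FPKM in Dsg2-/- hearts at 2 weeks, and 2.78, 2.29, 2.48 and 1.45 against 2.37, 3.73, 2.71 and 4.59 FPKM at 10 weeks. The genotypes were apart at 2 weeks and overlapped at 10 weeks (difference -2.10, SE 0.36, limma adjusted p = 0.0061). These genes resemble each other and may share fragments. Leukocyte genes such as Ptprc (2.33 to 0.75), Itgb2 (2.76 to 1.10) and Syk (1.15 to 0.42) faded too, as did Arg1 (3.17 to 0.37), an enzyme of arginine breakdown in macrophages, and the acute-phase gene Saa3 (2.67 to 0.20). Arg1 and Saa3 were tested only through the Dsg2-/- hearts at 2 weeks, and Arg1 lost its call in 20 of 24 alternative settings.

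A few genes of protein folding in the endoplasmic reticulum were also among the calls. Pdia6, a disulfide isomerase, measured 40.1, 36.2, 29.0 and 34.9 against 56.2, 52.3, 54.0 and 68.8 FPKM at 2 weeks and 29.5, 36.4, 39.2 and 34.4 against 34.6, 35.8, 29.5 and 33.3 FPKM at 10 weeks. It rose at 2 weeks and had overlapping genotypes at 10 weeks (difference -0.77, SE 0.16, limma adjusted p = 0.0202). Sdf2l1 went from 1.37 to -0.08 and the chaperone Canx from 0.22 to -0.27, a call that 18 of 25 alternative settings did not keep.

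Nox4, an NADPH oxidase of fibroblasts and muscle cells that differs from the phagocyte enzyme, had a larger effect at 10 weeks. It measured 0.871, 0.526, 0.285 and 0.612 against 0.704, 0.969, 0.569 and 0.124 FPKM at 2 weeks and 0.426, 0.357, 0.271 and 0.404 against 1.93, 3.93, 2.49 and 2.53 FPKM at 10 weeks. Its genotypes were apart at 10 weeks only (difference 1.42), and only those Dsg2-/- hearts brought it to the level for testing. Of 6 lymphatic vessel markers tested 2 had a larger effect, Mmrn1 and Ccl21a, and Prox1 and Pdpn had negative differences (-0.26 and -0.31) that did not pass. Mmrn1 went from 0.06 to 1.13, and Ccl21a, Ccl21b and Ccl21c, near-identical copies that may share fragments, from 0.12 to 1.49, 0.10 to 1.34 and 0.10 to 1.35. The guidance gene Ntn4 had estimates of opposite sign at the 2 ages. These were -0.53, which passed, and 0.30, which did not (difference 0.83, SE 0.17, limma adjusted p = 0.0144).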
